A study of Gossypium hirsutum with 15 samples.

Results

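The 200 cDNA probes with the brightest spots in developing cotton fibers were taken from 29184 cDNA probes on 15 dual-dye arrays, or 0.685% of the probes. For each array the background-subtracted intensities of Cy5 and Cy3 were raised to 50 units where lower, turned to log2 and averaged over the dyes, and the median of all cDNA probes of that array was subtracted. This quantity is called the level below. The 200 probes with the highest mean level over the 15 arrays were kept. The members were thus chosen by their levels, which are given as a description, whereas stage changes and line differences did not enter the choice. The mean level is an average over the stages, and probes with a high level at every stage had an advantage over probes with a high level at a single stage.

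The arrays compared fibers of the immature fiber (*im*) mutant with fibers of TM-1, its near-isogenic wild type in Upland cotton, at 5 stages of fiber development (13, 16, 19, 22 and 25 days post anthesis, DPA). Each stage had 3 arrays, and each array carried RNA of *im* and of TM-1. Plants grew in the field, tissue was pooled over plants, and RNA was amplified before labeling. The RNA came from fibers by the paper and the labels of the samples, and from ovules that carry fibers by the series record. The methods describe 3 biological pools in one place and 2 biological replicates with a dye swap in another, so part of the spread between arrays may be technical and the p-values then measure that spread. In RNA of a pooled tissue, fewer cells of a type and less RNA per cell cannot be told apart.

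A cotton fiber is a single cell of the seed coat that elongates with a thin primary wall, passes through a transition, and then deposits a thick secondary wall of nearly pure cellulose. Transcripts for wall loosening, turgor, lipid transport and the cytoskeleton are known to be prominent during elongation, and those for secondary wall cellulose synthesis become prominent afterwards. Mature *im* fibers have thin walls. No table used here ties a spot name to a gene or a sequence. The probes are therefore given by spot name, no gene role is stated for any of them, and fiber or ovule marker genes were not checked. The brightness of a spot also depends on the spotted cDNA, and the order of probes below is an order of spots, not of transcripts.

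All 200 probes were measured on all 15 arrays, where a spot counted as measured unless both dyes were under 400 units. In the whole set of probes 13761 to 19272 were measured per array. Only on array 1 of 25 DPA did a member have 1 dye under 400 units, and this was 1 probe. The 200 probes gave 11.8 to 16.3% of the summed Cy5 signal of an array and 8.68 to 15.7% of the summed Cy3 signal. At 19 DPA the median background of Cy3 around the spots was 972 units on array 1 and 797 on array 2, against 284.5 on array 3 and 253.5 to 519 on the arrays of the other stages.

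The brightest spot, 384P73_O_16, had a mean level of 7.28 on the log2 scale. Its level was 6.71, 6.78 and 7.11 at 13 DPA, 7.59, 7.03 and 7.05 at 16 DPA, 7.72, 6.95 and 7.62 at 19 DPA, 7.78, 7.38 and 7.14 at 22 DPA, and on the arrays of 25 DPA 7.56, 7.71 and 7.02. It was at the scanner limit of 65535 units in 29 of its 30 channels, so these values follow the limit of each array and not the amount of its transcript. The mean level was 7.15 for 384P30_J_22, 7.10 for 384P16_I_05, 7.02 for 384P74_F_23 and 6.82 for 384P43_I_08. These spots were saturated in 17, 14, 7 and 5 of 30 channels. At the lower edge of the set, 384P38_P_24 was the last probe inside with a mean level of 5.3034, and 384P41_F_17 was the nearest probe outside with 5.3018.

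The median level of the members was 5.98 at 13 DPA, 6.11 at 16 DPA, 5.75 at 19 DPA, 5.73 at 22 DPA and 5.66 at 25 DPA. On single arrays the members reached down to 0.12, and the highest on each array lay at the limit that saturation sets. That limit, the level of a spot saturated in both dyes, was 6.71, 6.78 and 7.11 at 13 DPA and lay between 6.95 and 7.78 on the arrays of later stages. The room above the members was thus smallest on arrays 1 and 2 of 13 DPA.

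**Figure D1:**
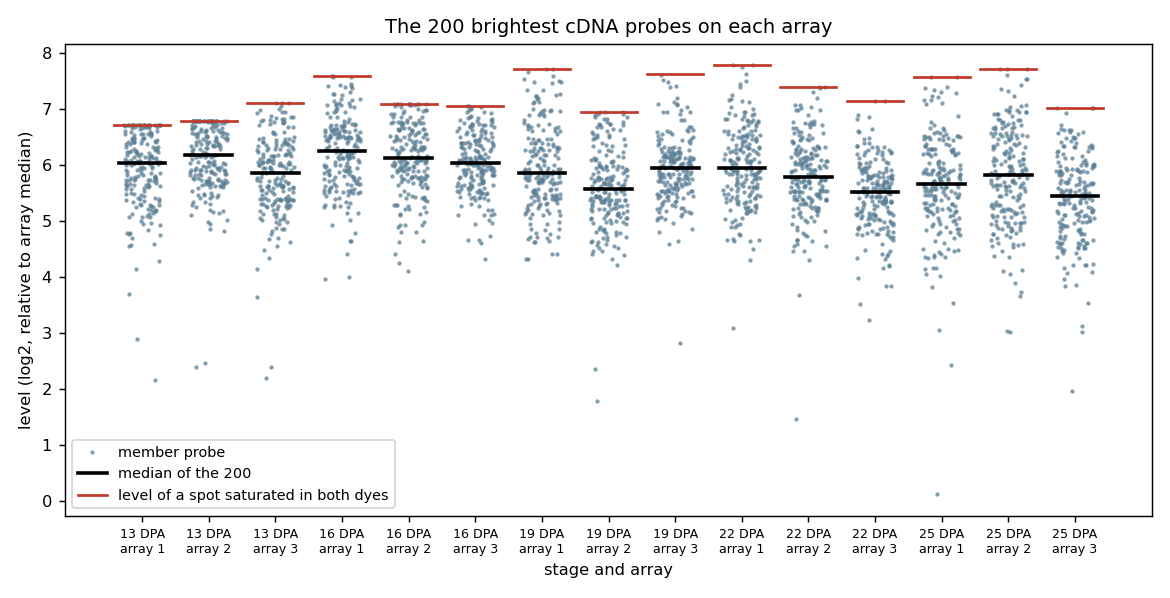
Level of each of the 200 brightest probes on each array (log2 of the intensity averaged over both dyes, relative to the median of all cDNA probes of the array). Black bars are the medians of the 200 probes and red bars the level of a spot saturated in both dyes, which was 6.71 on array 1 of 13 DPA and 7.78 on array 1 of 22 DPA.

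Saturation was common among the brightest spots and rare elsewhere. Of 6000 member values (200 probes, 15 arrays and both dyes) 337, or 5.62%, were at 65535 units before background subtraction. They came from 79 probes, of which 60 were saturated in 1 to 5 channels and 19 in more than 5, and 3 were saturated in 15 or more. The other 121 members were never saturated. Outside the set 39 values in 17 probes were saturated. Apart from the 5 brightest spots, 384P44_K_21 with 17 channels and 384P69_K_17 with 11 channels were saturated most often.

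Saturation was unevenly spread over arrays and dyes. At 13 DPA 40, 52 and 12 members were saturated in Cy5 and 25, 26 and 3 in Cy3 on arrays 1, 2 and 3. At 16 DPA the counts were 10, 24 and 19 in Cy5 and 4, 19 and 5 in Cy3. At 19 DPA they were 9, 11 and 1 in Cy5 and 3, 8 and 1 in Cy3. At 22 DPA 8, 5 and 3 members were saturated in Cy5 and 2, 5 and 2 in Cy3, and at 25 DPA 3, 6 and 18 in Cy5 and 6, 3 and 4 in Cy3. The highest counts were those of arrays 1 and 2 of 13 DPA, and arrays of the same stage differed widely. A saturated value is a lower limit, so a fold change with the saturated side as the brighter one is understated.

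The SD of the level over the 15 arrays had a median of 0.537 among members, with a range of 0.206 to 1.95, and a median of 0.689 over all cDNA probes. The level itself chose the members, and saturation holds down the SD of those that reached it. The smallest SDs were those of 384P43_I_08 and 384P22_C_09. The level of 384P22_C_09, which was never saturated, was 5.65, 5.51 and 5.74 at 13 DPA, 5.79, 5.79 and 5.91 at 16 DPA, 5.30, 5.21 and 5.87 at 19 DPA, 5.52, 5.73 and 5.81 at 22 DPA, and on the arrays of 25 DPA 5.43, 5.41 and 5.48. The arrays of all its stages overlapped with those of other stages. The spot with the smallest SD, 384P43_I_08, stayed between 6.58 and 7.19 and was saturated in 5 channels.

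At a given stage 147, 157, 155, 154 and 130 members were within the 200 brightest probes of that stage, from 13 to 25 DPA. In all, 73 members were in the stage's own 200 at all 5 stages, and 33 were in the array's own 200 on all 15 arrays. Between its highest and lowest stage mean the median move of a member was 1.03 (log2), with a range of 0.23 to 4.88. The range was at least 2-fold, or 1 on the log2 scale, for 103 members and at least 2 on that scale for 17.

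By the level, 30 members had their highest stage mean at 13 DPA, 80 at 16 DPA, 30 at 19 DPA, 22 at 22 DPA and 38 at 25 DPA. The share with the highest mean at 16 DPA was 40% of members, against 17.6% of all cDNA probes. This preference depended on the scaling. After the loess and Aquantile normalization used for the tests below, 57, 33, 31, 34 and 45 members had their highest mean at the stages in order of age, and the median normalized level was 14.63, 14.60, 14.55, 14.55 and 14.48 (log2 intensity). Aquantile scaling gives the arrays the same distribution of average intensity, and it therefore leaves little room for the brightest probes to shift as a class. The lowest stage mean fell at 25 DPA for 83 members by the level and for 80 members after normalization, which was the most frequent stage in both cases. The lowest stage was not counted over all cDNA probes, so this is not shown to be particular to the members.

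Stage changes were tested in limma on the mean of the lines, from the normalized values of 30 channels with a block for each array. A member was called where its adjusted p was under 0.05 and its fold change at least 2. From 13 to 25 DPA 51 members were called, or 25.5%, against 18.3% of the 14551 probes tested. Of these, 40 fell, which is 20% of members against 12% of probes tested, and 11 rose, which is 5.5% of members against 6.26% of probes tested. The median change of the 200 members was -0.14 on the log2 scale, and that of all probes tested was -0.19. The SE of this change had a median of 0.335 among members and of 0.409 over all probes tested. The fold changes of the 40 that fell had a median of 3.03 and a range of 2.06 to 19.6, and those of the 11 that rose had a median of 3.61 and a range of 2.27 to 26.4. On all 51 the arrays of 25 DPA did not overlap with those of 13 DPA.

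Of the 40 members that fell, 26 were saturated on at least 1 array of 13 DPA, and of the 11 that rose, 4 were saturated on at least 1 array of 25 DPA. Among the 121 members that were never saturated, 12 fell and 7 rose, so saturated members made up most of the fallen ones. Both shares of the 121 were below those of all probes tested, of which 12% fell and 6.26% rose. However, saturation was most frequent on arrays of 13 DPA, so the 121 lack many of the members that were brightest at that stage. Their share of falls therefore cannot show whether the excess of falls depended on saturation. Without the arrays of replicate 2, 18 of all members fell and 7 rose. With loess alone, without scaling across arrays, 77 fell and 3 rose, and the median change was then -0.85 among members and -0.59 over all probes. With median centring in place of loess and Aquantile the median of all probes was -0.05.

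**Figure D2:**
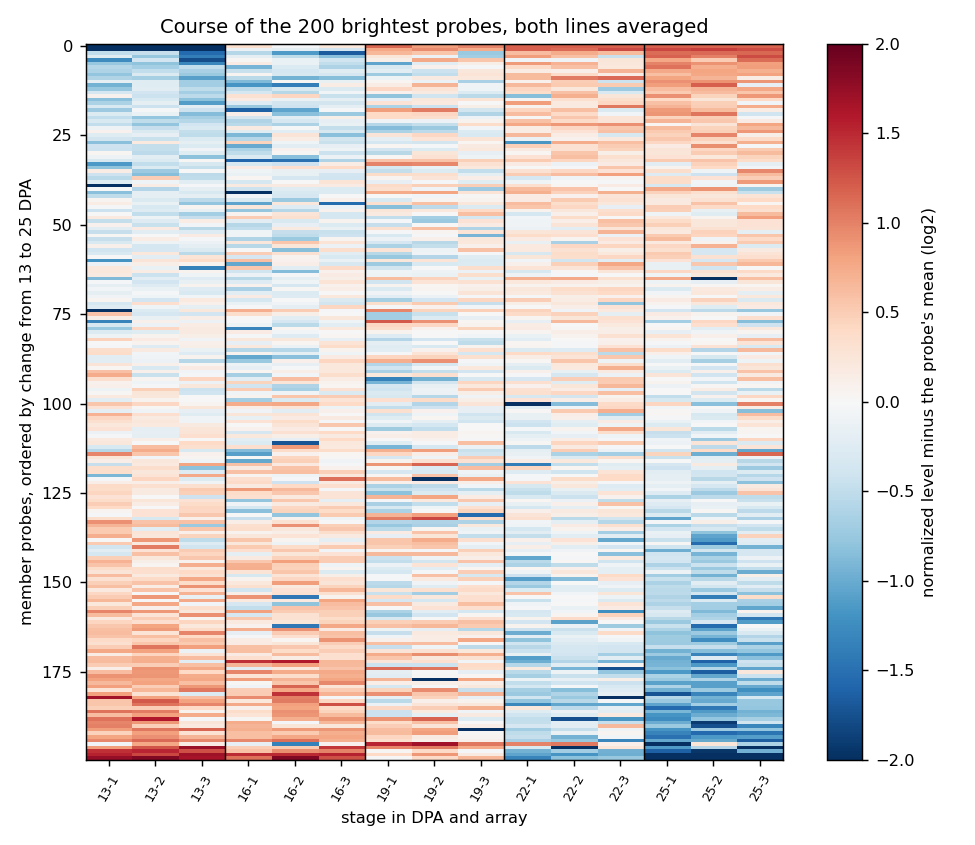
Normalized level of each of the 200 probes on each array (both lines averaged, log2), less the mean of the probe over the 15 arrays. Rows are ordered by the change from 13 to 25 DPA, with the strongest rise at the top and the strongest fall at the bottom, and 11 rows rose and 40 fell by the test.

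The largest rises belonged to 384P44_K_21 and 384P41_J_23. The normalized level of 384P44_K_21 was 11.66, 11.13 and 11.01 at 13 DPA, 15.13, 14.77 and 15.02 at 16 DPA, 15.95, 15.65 and 15.79 at 19 DPA, 15.99, 15.99 and 15.99 at 22 DPA, and on the arrays of 25 DPA 15.99, 15.98 and 15.99. No array of 13 DPA came near those of later stages, and at 22 and 25 DPA the spot was saturated in both dyes on every array. Its level at 25 DPA was thus at least 26.4-fold that at 13 DPA, with a log2 change of 4.72 (SE 0.42, adjusted p = 6.21e-09 from limma). Between 13 and 16 DPA the log2 change was 3.71 (SE 0.42, adjusted p = 7.2e-06 from limma), or at least 13.1-fold, since TM-1 was saturated on all 3 arrays of 16 DPA.

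The course of 384P41_J_23 had no saturated channel. Its normalized level was 10.99, 11.18 and 10.83 at 13 DPA, 14.03, 13.96 and 13.77 at 16 DPA, 14.93, 15.09 and 14.89 at 19 DPA, 15.35, 15.28 and 15.48 at 22 DPA, and on the arrays of 25 DPA 15.49, 15.53 and 15.46. The arrays of 13, 16 and 19 DPA did not overlap with those of any other stage, and those of 22 and 25 DPA did. The level at 25 DPA was 22.5-fold that at 13 DPA, with a log2 change of 4.49 (SE 0.24, adjusted p = 1.49e-12 from limma). The change between 13 and 16 DPA was 7.56-fold, and the change between 16 and 19 DPA was 2.07-fold (adjusted p = 0.00707 from limma).

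The largest falls belonged to 384P31_D_11 and 384P42_F_24, both of them at or near saturation at 13 DPA. The normalized level of 384P31_D_11 was 15.89, 15.99 and 15.78 at 13 DPA, 15.24, 15.99 and 15.41 at 16 DPA, 14.13, 14.51 and 14.81 at 19 DPA, 12.82, 13.31 and 13.38 at 22 DPA, and on the arrays of 25 DPA 11.10, 11.63 and 12.04. From 19 DPA on, the arrays of each stage lay below all arrays of the stage before. The fall from 13 to 25 DPA was 19.6-fold, with a log2 change of -4.29 (SE 0.37, adjusted p = 4.3e-09 from limma).

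For 384P42_F_24 the normalized level was 15.76, 15.57 and 15.91 at 13 DPA, 15.71, 15.72 and 15.76 at 16 DPA, 14.63, 15.09 and 14.40 at 19 DPA, 13.16, 13.04 and 13.24 at 22 DPA, and on the arrays of 25 DPA 11.77, 11.65 and 11.92. The arrays of 13 and 16 DPA overlapped, and those of each later stage lay apart and lower. The fall from 13 to 25 DPA was 15.6-fold, with a log2 change of -3.96 (SE 0.32, adjusted p = 1.52e-09 from limma). At 13 DPA both spots were saturated in 5 of 6 channels, and their folds against that stage are therefore understated.

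Between adjacent stages far fewer members were called. From 13 to 16 DPA the 2 probes just named, 384P44_K_21 and 384P41_J_23, rose and no member fell. This was 1% of members against 0.216% of the 16216 probes tested, of which 0.173% rose and 0.0432% fell. With an unadjusted p under 0.05 in limma, 8 members rose and 2 fell. Counts by unadjusted p were made among members only. From 16 to 19 DPA 6 members rose and 2 fell, or 4% against 7.98% of 13789 probes, of which 3.13% rose and 4.86% fell. From 19 to 22 DPA none rose and 8 fell, or 4% against 7.42% of 13118 probes, of which 4.06% rose and 3.37% fell. In this interval 14 members rose and 26 fell with an unadjusted p under 0.05 in limma. From 22 to 25 DPA limma called no member, against 0.028% of 14291 probes, while 4 members rose and 18 fell with an unadjusted p under 0.05. On the averages of the channels 2 members were called in this interval.

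The calls on either side of 19 DPA depended on the arrays of that stage. Without replicate 1, 2 or 3, 1, 0 and 15 members were called from 16 to 19 DPA, and 1, 0 and 14 from 19 to 22 DPA. With array 3, which lacked the raised Cy3 background, as the only one of 19 DPA, 1 and 2 were called. With loess alone 1 member rose and 21 fell from 16 to 19 DPA, and with median centring 4 rose and 18 fell, so the larger side turned in that interval. None of the 6 probe changes given next was called without replicate 2 or with array 3 as the only one of 19 DPA.

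Among the members called whose arrays lay apart, the largest rise from 16 to 19 DPA was that of 384P69_K_17, with normalized levels of 15.99, 15.99 and 15.89 at 19 DPA against 13.84, 13.93 and 14.81 at 16 DPA. The log2 change was at least 1.77 (SE 0.36, adjusted p = 0.00338 from limma), since the spot was saturated in both dyes on arrays 1 and 2 of 19 DPA. The arrays did not overlap, although at 13 DPA its levels of 15.09, 15.13 and 15.45 were already above those of 16 DPA. The next, 384P76_P_16, had 15.21, 15.27 and 14.75 at 19 DPA against 12.35, 14.17 and 14.20 at 16 DPA, with a log2 change of 1.51 (SE 0.39, adjusted p = 0.0174 from limma). Array 1 of 16 DPA was low for this spot, and without replicate 1 the log2 change was 0.83 and was not called.

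The falls from 16 to 19 DPA were close to the 2-fold limit. They were those of 384P42_F_24, given above, with a log2 change of -1.02 (SE 0.32, adjusted p = 0.0454 from limma), and of 384P30_E_16. This second spot had 13.40, 13.84 and 13.69 at 19 DPA against 14.87, 14.55 and 14.51 at 16 DPA, with a log2 change of -1.0 (SE 0.31, adjusted p = 0.0411 from limma). Both calls were also lost without replicate 1, and that of 384P42_F_24 without replicate 3. Of the 2 spots, 1 was saturated on at least 1 array of 16 DPA, so its fall is understated.

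Among the members called from 19 to 22 DPA, the largest falls were those of 384P49_C_17 and 384P76_H_06. The normalized level of 384P49_C_17 was 13.67, 12.40 and 12.99 at 22 DPA against 15.06, 15.34 and 13.89 at 19 DPA, with a log2 change of -1.75 (SE 0.43, adjusted p = 0.0132 from limma). It was not called without replicate 1, and it was saturated in *im* on 1 array of 19 DPA, so its fall is understated. That of 384P76_H_06 was 14.45, 13.33 and 12.50 at 22 DPA against 15.38, 15.33 and 14.61 at 19 DPA, with a log2 change of -1.68 (SE 0.40, adjusted p = 0.0108 from limma). The arrays of the stages lay apart for both spots, though array 3 of 19 DPA was close to array 1 of 22 DPA.

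For the comparison of the lines the direction is not settled by the sources. The dye labels put *im* in Cy5 on all arrays, the methods put TM-1 in Cy5 and name a dye swap, and the order of the source names turns in replicate 2. Replicate 2 ran against replicates 1 and 3 at every stage, with correlations of the Cy5 over Cy3 log ratio between -0.95 and -0.59 among the 200 members, whereas replicates 1 and 3 correlated at 0.68 to 0.93. The order of the source names was therefore used, with log2(*im*/TM-1) positive where *im* was higher. Under the methods' assignment every sign below turns, and under the material labels, which differ from the source names at 16 and 22 DPA, the signs at these stages turn. The choice was made earlier with the paper's counts in view and its direction is not independent of the paper. With no swap at all, no member was called at any stage.

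By source names, at 13 DPA 8 members were higher and 1 was lower in *im*, or 4.5% against 2.08% of the 18363 probes tested (1.26% higher and 0.817% lower). At 16 DPA 1 was higher and 9 were lower, or 5% against 9.11% of 16647 probes (5.01% higher and 4.1% lower). At 19 DPA 3 were higher and 5 lower, or 4% against 4.94% of 16749 probes (3.12% higher and 1.82% lower). At 22 DPA 28 were higher and 3 lower, or 15.5% against 3.69% of 15456 probes (1.93% higher and 1.76% lower). At 25 DPA 29 were higher and none lower by limma, or 14.5% against 4.42% of 15460 probes (2.2% higher and 2.23% lower). By any amount, 110 members were higher and 28 lower in *im* with an unadjusted p under 0.05 in limma, which was counted among members only. All members called by the adjusted p and the 2-fold limit had the same direction on all 3 arrays of the stage. With the signs turned, the members higher in *im* numbered 1, 9, 5, 3 and 0 and those lower 8, 1, 3, 28 and 29.

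The median log2(*im*/TM-1) of the members was 0.04, 0.04, 0.03, 0.24 and 0.36 from 13 to 25 DPA, and that of all probes tested stayed between -0.01 and 0.01. Loess within each array holds the log ratios of all probes near 0, so this second median is set by the normalization. The log2(*im*/TM-1) was above 0 for 115, 109, 110, 138 and 140 members. Among the 121 members that were never saturated the medians at 22 and 25 DPA were 0.13 and 0.23, with 6 higher and 2 lower in *im* at 22 DPA and 9 higher and none lower at 25 DPA. These calls, 8 and 9 of 121, were a share above the 3.69% and 4.42% of all probes tested. It was below the 15.5% and 14.5% of all members, so most of the late calls were in members saturated at some stage. The SE of the line difference had a median of 0.139 among members and of 0.163 to 0.174 over all probes tested, so shares called do not compare size alone. Without regard to sign, the median log2(*im*/TM-1) at 13 DPA was 0.161 among members against 0.233 over all probes tested. It was 0.389 against 0.245 at 22 DPA and 0.462 against 0.260 at 25 DPA. The share of members called was above that of all probes tested at 13, 22 and 25 DPA and below it at 16 and 19 DPA. At 19 DPA the count was 14 without replicate 2, with 11 higher and 3 lower in *im*, and 30 with array 3 as the only one of the stage.

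**Figure D3:**
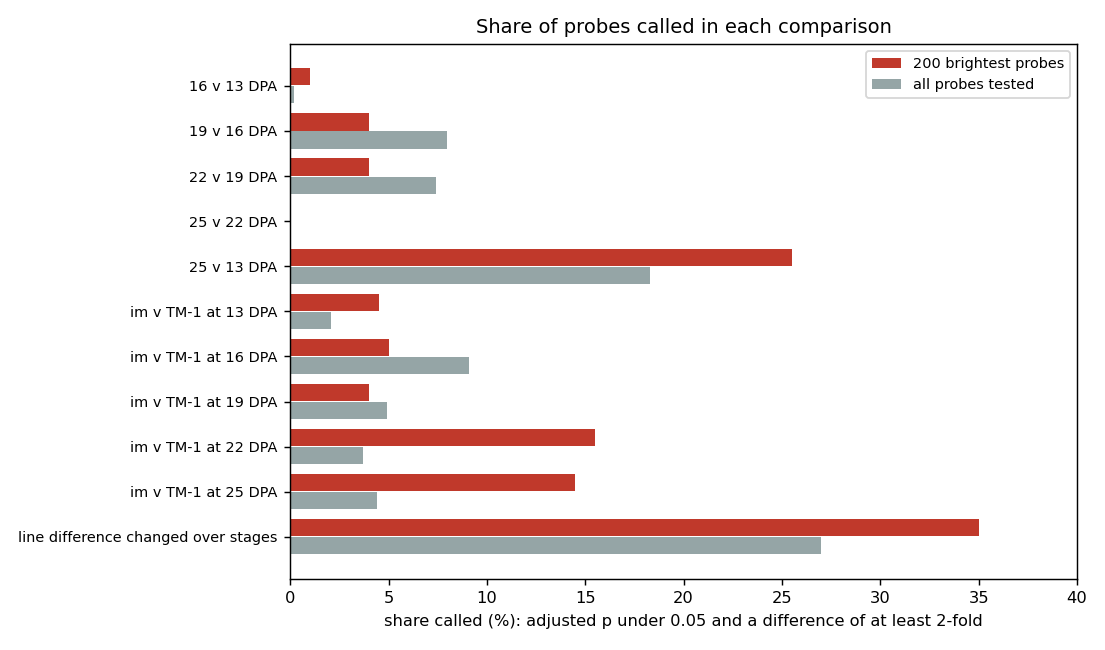
Share of the 200 brightest probes (red) and of all probes tested (grey) that were called in each comparison, in percent, by an adjusted p under 0.05 and a change of at least 2-fold (for the last bar pair, a range of the line difference of at least 2-fold). Members reached 15.5% and 14.5% for the lines at 22 and 25 DPA, where 3.69% and 4.42% of all probes tested were called.

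The late line difference involved a common group of probes. Of the 31 members called at 22 DPA and the 29 at 25 DPA, 24 were called at both stages, which is 77.4% and 82.8% of these lists, and all 24 were higher in *im* both times. Of all probes tested 3.69% and 4.42% were called at these stages. Their overlap was not counted, so an overlap particular to the members is not shown. At 13, 16 and 19 DPA the median log2(*im*/TM-1) of the 24 members was 0.14, 0.17 and 0.72, and it was 1.46 and 1.51 at 22 and 25 DPA. At 19 DPA all 24 were above 0, with a range of 0.40 to 1.56. The median normalized level of these 24 was 14.50 in *im* and 12.96 in TM-1 at 25 DPA, and 15.03 in *im* and 13.69 in TM-1 at 22 DPA. They came from 17 plates of the probe collection, 13 of them were among those that fell from 13 to 25 DPA and none rose, and 6 were never saturated. Over all stages 146 members were called between the lines at no stage, 25 at 1, 26 at 2, 2 at 3 and 1 at 4, and by source names no member was called in opposite directions at different stages. Under the material labels 29 members would be, the 24 called at both 22 and 25 DPA among them.

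The largest of the late differences were those of 384P53_G_20 and 384P49_C_17. The log2(*im*/TM-1) of 384P53_G_20 was 0.11, 0.29 and 0.23 at 13 DPA, 1.40, 0.91 and 0.51 at 16 DPA, 1.65, 1.54 and 1.49 at 19 DPA, 1.89, 1.93 and 2.12 at 22 DPA, and on the arrays of 25 DPA 2.00, 2.06 and 1.61. All arrays from 19 DPA on lay above those of 13 and 16 DPA. The spot was higher in *im* by 2.95-fold at 19 DPA, with a mean of 1.56 ± 0.08 (SD, n = 3 arrays, limma adjusted p = 4.44e-06), by 3.94-fold at 22 DPA and by 3.71-fold at 25 DPA (adjusted p = 2.77e-06 and 1.13e-06 from limma). At 13 and 16 DPA it was saturated in *im* on all 3 arrays, and at 16 DPA, where TM-1 was within range, it was at least 1.92-fold higher in *im*. Its level on array 3 of 19 DPA was low, 2.83 against 6.39 and 6.09 on the other arrays of that stage, while the ratio on this array was like the others.

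For 384P49_C_17 the log2(*im*/TM-1) was 0.05, 0.29 and 0.37 at 13 DPA, 1.49, 1.55 and 0.87 at 16 DPA, 1.44, 1.33 and 1.58 at 19 DPA, 1.79, 1.89 and 2.06 at 22 DPA, and on the arrays of 25 DPA 2.17, 2.01 and 1.68. The ratios of 13 DPA lay below those of all later stages, but there the spot was saturated in *im* on 2 arrays and in TM-1 on 1, so that the difference at 13 DPA is not known in size. The mean was 1.31 ± 0.38 at 16 DPA, 1.45 ± 0.13 at 19 DPA, 1.91 ± 0.14 at 22 DPA and 1.95 ± 0.25 at 25 DPA (SD, n = 3 arrays each), or 2.47-, 2.74-, 3.77- and 3.87-fold. The adjusted p was between 6.86e-07 and 1.31e-05 in limma, and this was the single member called at 4 stages. In *im* it was saturated on 2 arrays of 16 DPA and 1 of 19 DPA.

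Under the material labels the values at 16 and 22 DPA turn, and 384P53_G_20 and 384P49_C_17 are then lower in *im* at 22 DPA by -1.98 and -1.91 on the log2 scale, between higher values at 19 and 25 DPA. A reading in which *im* is higher at 19, 22 and 25 DPA alike holds by source names only, and under the methods' assignment TM-1 takes the place of *im* at all stages.

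Fewer members were lower in *im*, most of them at 16 and 19 DPA. The log2(*im*/TM-1) of 384P44_K_21 was -1.91, -1.96 and -1.09 at 13 DPA and -2.08, -1.45 and -1.83 at 16 DPA. Its means were -1.65 ± 0.49 and -1.79 ± 0.31 (SD, n = 3 arrays each, limma adjusted p = 0.00024 and 2.12e-05), or 3.15-fold lower and, because TM-1 was saturated on all 3 arrays, at least 3.45-fold lower. At 22 and 25 DPA it was saturated in both lines on every array, and no line difference can be read there. The mean normalized level of this probe was 14.08 in *im* against 15.87 in TM-1 at 16 DPA, and 10.44 in *im* against 12.09 in TM-1 at 13 DPA.

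The other large riser, 384P41_J_23, was lower in *im* on all arrays up to 19 DPA and was not called between the lines later. Its log2(*im*/TM-1) was -0.88, -0.76 and -0.99 at 13 DPA, -1.12, -1.26 and -1.22 at 16 DPA, -1.07, -1.46 and -1.14 at 19 DPA, 0.06, -0.03 and 0.19 at 22 DPA, and on the arrays of 25 DPA 0.21, 0.09 and 0.36. The arrays of 22 and 25 DPA did not overlap with those of the earlier stages. At 19 DPA the mean was -1.22 ± 0.21 (SD, n = 3 arrays, limma adjusted p = 3.86e-06), or 2.33-fold lower in *im*, and at 22 DPA it was 0.07 ± 0.11 (adjusted p = 0.70 from limma). At 25 DPA the mean was 0.22 ± 0.14 (adjusted p = 0.181 from limma), with all 3 arrays above 0.

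**Figure D4:**
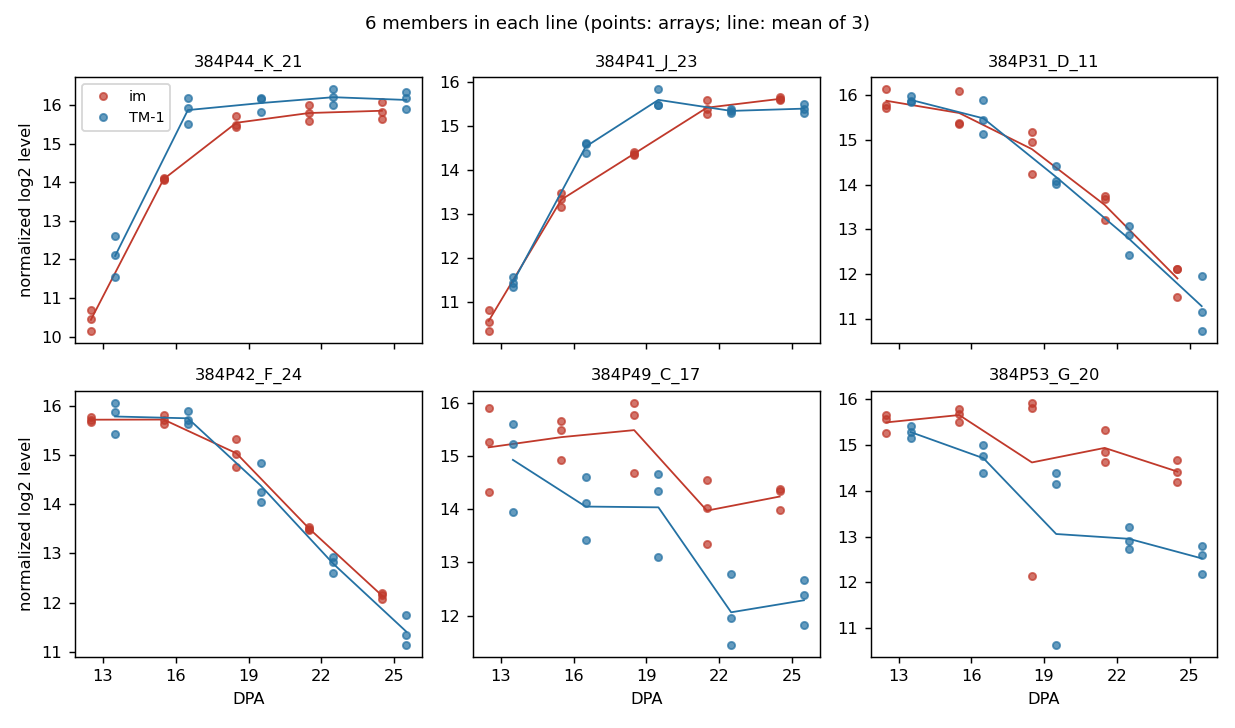
Normalized log2 level of 6 members in *im* (red) and TM-1 (blue) against DPA, with the lines assigned by source names. Points are single arrays, drawn slightly before (*im*) and after (TM-1) their stage, and the line joins means of 3 arrays. The level of 384P41_J_23 was 2.33-fold lower in *im* at 19 DPA, and 384P49_C_17 and 384P53_G_20 were 3.87-fold and 3.71-fold higher in *im* at 25 DPA.

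At 16 DPA the next largest difference in favor of TM-1 was that of 384P67_J_15, with log2(*im*/TM-1) of -1.91, -1.95 and -1.0 and a mean of -1.62 ± 0.53 (SD, n = 3 arrays, limma adjusted p = 0.000562). At the other stages its means were between -0.74 and -0.13 and it was not called. The log2(*im*/TM-1) of 384P60_N_22 was -1.22, -1.34 and -1.38 at 19 DPA, and on the arrays of 22 DPA it was -1.49, -1.35 and -1.68, with means of -1.31 ± 0.08 and -1.50 ± 0.17 (SD, n = 3 arrays each, limma adjusted p = 8.63e-05 and 5.69e-05). At 13 DPA the same probe had 0.81, 1.04 and 0.57, all of them above 0. For 384P33_L_08 the values at 22 DPA were -1.13, -1.05 and -1.33, with a mean of -1.17 ± 0.14 (SD, n = 3 arrays, limma adjusted p = 3.46e-05), and at the other stages the means lay between -0.46 and 0.23.

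At 13 DPA the largest differences in favor of *im* were those of 384P45_N_23 and 384P29_K_07. The log2(*im*/TM-1) of 384P45_N_23 was 1.60, 1.80 and 1.48, with a mean of 1.62 ± 0.16 (SD, n = 3 arrays, limma adjusted p = 5.16e-06), or 3.08-fold. That of 384P29_K_07 was 1.21, 0.95 and 1.27, with a mean of 1.14 ± 0.17 (SD, n = 3 arrays, limma adjusted p = 0.000578), or 2.21-fold, and it was again called at 19 and 22 DPA with 1.06 ± 0.51 and 1.02 ± 0.25. Neither probe was saturated at 13 DPA. Of the 8 members higher in *im* at 13 DPA, none was called at 25 DPA, where 14.5% of members and 4.42% of all probes tested were called. With 8 members this is no sign of a separate set. At 25 DPA their median log2(*im*/TM-1) was 0.26, and 6 of the 8 were above 0.

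The line difference itself changed over the stages for 70 members, or 35%, against 27% of the 12092 probes tested with limma's F-test over the 5 stages and a range of at least 2-fold. Among the 121 members that were never saturated it changed for 37, a share above 27% and below 35%. By the largest F the 70 were led by 384P45_N_23 and 384P22_L_09. For 384P45_N_23 the later log ratios stood at -0.12, 0.34 and 0.27 at 16 DPA, -0.72, -0.88 and -1.28 at 19 DPA, -0.38, -0.35 and -0.27 at 22 DPA, and on the arrays of 25 DPA -0.09, -0.14 and -0.26 (adjusted p = 1.73e-06 from limma). The probe was thus on the side of *im* on all arrays of 13 DPA and on the side of TM-1 on all arrays from 19 DPA on. For 384P22_L_09 they stood at -0.20, 0.14 and 0.09 at 13 DPA, 0.08, 0.19 and 0.35 at 16 DPA, 0.73, 0.58 and 0.80 at 19 DPA, 1.40, 1.12 and 1.24 at 22 DPA, and on the arrays of 25 DPA 1.77, 1.88 and 1.85 (adjusted p = 3.86e-06 from limma). From 19 DPA on, the arrays of each stage lay above all arrays of the stage before. It was saturated on all arrays of 13 DPA.

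Members that fell from 13 to 25 DPA lay on the side of *im* late in the series. In the 40 that fell, the median log2(*im*/TM-1) was 0.05, 0.26, 0.64, 0.64 and 0.63 from 13 to 25 DPA, and it was above 0 in 27, 37, 40, 37 and 39 of them. Taken within the lines, their median change from 13 to 25 DPA was -1.15 in *im* and -1.89 in TM-1, and 39 of the 40 fell less in *im*. Of the 40, 26 were saturated on at least 1 array of 13 DPA, so the fall of a saturated line is understated. Among all members, 5 were saturated on all 3 arrays of 13 DPA in *im* alone and 0 in TM-1 alone. The size of the within-line falls is therefore not exact. Under the methods' assignment the lines change places, and the 39 fell less in TM-1. In the 12 of them that were never saturated the medians were 0.19, 0.28, 0.60, 0.60 and 0.64. In the 11 that rose, the medians were 0.21, -0.82, -0.54, -0.34 and -0.28, and the median change was 1.18 in *im* and 2.16 in TM-1, with 9 of 11 rising less in *im*, or less in TM-1 under the methods' assignment. In the 7 of these that were never saturated, the medians were 0.10, -0.82, -0.96, -0.34 and -0.38.

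This arrangement was not particular to the brightest probes. Among the other probes that fell, 44.4, 65.3, 82.7, 72 and 78.4% were above 0 on the log2(*im*/TM-1) scale at the 5 stages, and among those that rose 52.1, 27.8, 21.4, 32.4 and 22.3%. Stage changes and line differences were read from the same arrays and are not independent measurements. Among the 149 members not called from 13 to 25 DPA the medians were 0.01, -0.05, -0.03, 0.17 and 0.28, and 13 and 15 of them were higher in *im* at 22 and 25 DPA. The late excess in *im* thus also involved members without a called stage change.

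**Figure D5:**
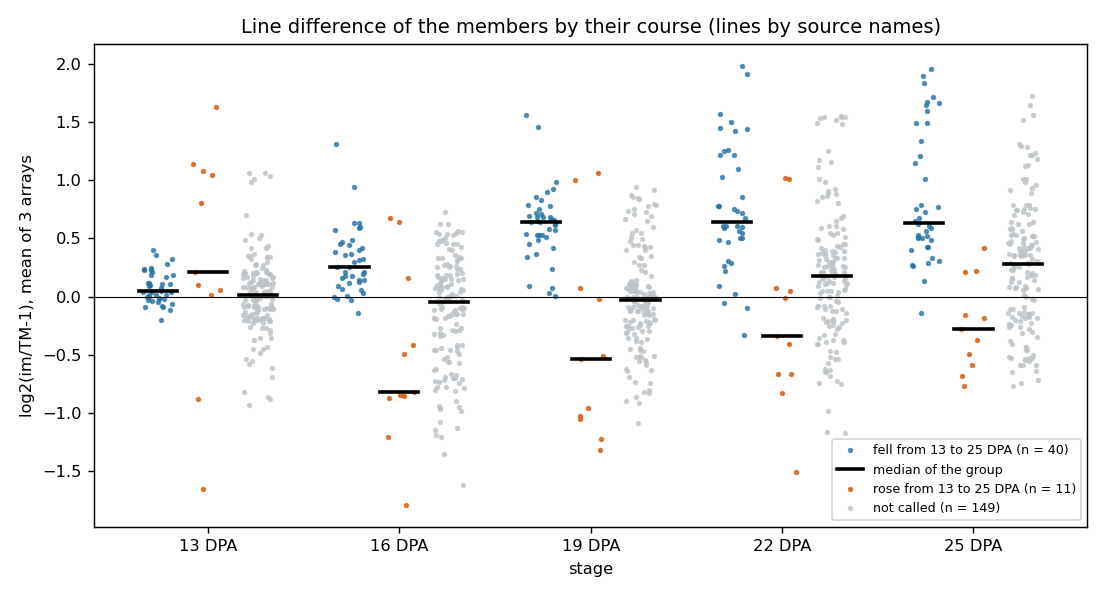
Mean log2(*im*/TM-1) of each member at each stage, with the lines assigned by source names, for the 40 members that fell (blue), the 11 that rose (orange) and the 149 not called (grey) from 13 to 25 DPA. Black bars are group medians, which at 25 DPA were 0.63, -0.28 and 0.28.

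Saturation touched some of these line differences. Members saturated in both lines on all 3 arrays, for which no ratio can be read, numbered 3, 0, 1, 2 and 2 from 13 to 25 DPA. Those saturated on all 3 arrays in *im* alone numbered 5, 7, 0, 1 and 0, and in TM-1 alone 0, 3, 0, 0 and 1. Of the members called between the lines, 0 of 9, 5 of 10, 1 of 8, 0 of 31 and 2 of 29 had a saturated value at that stage, so the late counts rested on few saturated values.

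The members were spread over 56 of the 76 plates of the probe collection and over all 48 print blocks of the array, with at most 12 in a block. Plates 41 and 42 held 12 members each and plates 71 and 72 held 10 each, against a mean of 2.63 per plate. Plates 41 to 44 together held 40 members and plates 71 to 74 held 31. Spots of a plate may hold the same transcript, so the 200 probes need not be 200 transcripts.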

How the data were processed

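The authors scanned the arrays and quantified the images with LuxScan. Each deposited file lists the intensities of 30000 spots and their local backgrounds for both dyes, and 816 control spots were left out. A deposited value table, made by the authors, gives the log2 of Cy5 over Cy3 per spot and served as an alternative. Its columns had medians of -0.014 to 0.018 and followed the intensities with r of 0.959 to 0.996. The sources used here do not say how it was normalized, and it was not turned for the swap. Per the submitters' processing notes, limma 3.4.5 ran in R 2.12.2.

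Medians after background subtraction were floored at 50 units, and spots were dropped where both dyes were below 400 units. Loess and Aquantile normalization and all fits used limma 3.58.1 in R 4.3.3. Stage changes were fitted on 30 channels with an intraspot correlation of 0.8623, and line differences on the log ratios of all 15 arrays with a coefficient per stage. A probe needed 2 measured arrays per stage, and p-values were adjusted over all probes tested by Benjamini-Hochberg. Both fits were tried on simulated data with known changes and independent normal noise. The simulation had no saturation, background effect or RNA shared between arrays, so it does not bear on those limits. Precision is limited by the number of arrays. Named are the 5 highest members, the probes at the edge, the 2 most saturated of the rest, the 2 with the smallest SD, the 2 with the largest F, and at most 2 per contrast and direction, by fold among calls in which arrays lay apart or ran 1 way. The 200 probes, the rule for names and the alternatives were chosen with earlier results of these data known. No spot name matched the reference gene table.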

Additional observations from a re-analysis of the deposited data

Results flagged for a closer look

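The line difference changed over the stages for 70 members, or 35% against 27% of all probes tested, by limma's F-test of the difference itself. Of these 70, 37 were never saturated. The range of the stage means of log2(*im*/TM-1) was 2.58 for 384P45_N_23, which was on the side of *im* at 13 DPA and of TM-1 at 19 DPA, and 1.82 for 384P22_L_09, which was on the side of *im* at 25 DPA. At 13 DPA 384P22_L_09 was saturated on all 3 arrays, in *im* on 2 and in TM-1 on 2, so that its mean of 0.01 there, and with it the range, is not exact. Samples far from their group were not tested for, since a stage had 3 arrays.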

How the results depend on the processing

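Of the 200 members 181 to 197 stayed in the set under other ways of averaging, and all 200 with a floor of 1 unit. Of 195 counts under other settings 163 stayed within 1.5 times the reported one. For the named probes 424 of 493 values kept direction and call, 46 kept the direction only and 23 reversed. The cause of the changes was not tested. From 16 to 19 DPA the count of 8 was 22 with loess alone and 22 with median centring, and from 19 to 22 DPA the count of 8 was 2 with loess alone and 13 with no filter on faint spots. From 22 to 25 DPA, where no member was called, 2 were with no filter, with median centring, with negative flags left out and with averages of the channels of an array. From 13 to 25 DPA the 51 became 80 with loess alone, and from 13 to 16 DPA 1 of 2 was left once saturated spots were left out, with 157 members tested. Leaving out replicates gave 0 to 15 members for 19 against 16 DPA, 0 to 14 for 22 against 19 DPA, 25 to 57 for 25 against 13 DPA, and 8 to 14 between the lines at 19 DPA. The next 2 alternatives were chosen after seeing the data. With array 3 as the only one of 19 DPA the counts were 1 for 19 against 16 DPA, 2 for 22 against 19 DPA and 30 between the lines at 19 DPA, where its spread was taken from the other stages, and with the files that lack negative flags as a block 3 members differed between the lines at 13 DPA. With median centring 4, 6 and 46 members differed between the lines at 13, 16 and 25 DPA. With the dye labels read without a swap the count was 0 at each of the 5 stages, and 0 for a changed line difference, which the material labels raised to 125.

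Under the material labels log2(*im*/TM-1) at 16 DPA was -1.31 for 384P49_C_17, 1.79 for 384P44_K_21 and 1.62 for 384P67_J_15, and at 22 DPA -1.98 for 384P53_G_20, -1.91 for 384P49_C_17, 1.5 for 384P60_N_22 and 1.17 for 384P33_L_08. The methods' assignment gave the same turned values at 16 and 22 DPA. At 13 DPA it gave -1.62 for 384P45_N_23, -1.14 for 384P29_K_07 and 1.65 for 384P44_K_21, at 19 DPA -1.56 for 384P53_G_20, -1.45 for 384P49_C_17, 1.31 for 384P60_N_22 and 1.22 for 384P41_J_23, and at 25 DPA -1.95 for 384P49_C_17 and -1.89 for 384P53_G_20. Outside these, the call of 384P33_L_08 at 22 DPA was lost with median centring (-0.90) and that of 384P29_K_07 at 13 DPA with the flag block (0.96).

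Replicate numbers were not shown to pair arrays of different stages, since the correlations of same-numbered arrays were -0.20 to 0.19 for the levels and -0.12 to 0.53 for log2(*im*/TM-1). With the replicate block 10 members were called for 19 against 16 DPA, 10 for 22 against 19 DPA and 51 for 25 against 13 DPA, and the line difference changed for 73.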
